A study of Mus musculus with 24 samples.

Results

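Macrophage genes were followed through mouse sciatic nerve in a model of Charcot-Marie-Tooth neuropathy type 1B, an inherited demyelinating disease of Schwann cells. They numbered 10: Csf1r, Adgre1, Cd68, Cybb, Ctss, Ms4a7, Cd163, Mgl2, Lgals3 and Gpnmb. They were taken by name: every probe set of the array annotated to 1 of these 10 symbols was used, which gave 12 probe sets, 3 of them for Csf1r and 1 for each other gene. The array held 12393 named genes in all. Macrophages of peripheral nerve live between and around the fibres, depend on signalling through the CSF1 receptor, and take up myelin debris when the nerve is damaged. In hereditary demyelinating neuropathies they also multiply in nerve and strip myelin from axons. The 10 genes cover the receptor that keeps the lineage alive (Csf1r) and proteins used to recognise it (Adgre1, which encodes surface F4/80, and lysosomal Cd68). They also cover effector proteins (Cybb and Ctss) and a membrane protein found in macrophages (Ms4a7). The others encode scavenger and lectin receptors of resident or alternatively activated macrophages (Cd163 and Mgl2) and proteins of phagocytes filled with debris (Lgals3 and Gpnmb). Galectin-3, the product of Lgals3, can also be made by Schwann cells of injured nerve.

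The study compared 4 genotypes at 3 ages, with 2 arrays in each of the 12 groups, 24 arrays in all. WT mice carried neither change. S63del mice expressed a mutant myelin protein (genotype P0S63del in the labels), which is retained in the endoplasmic reticulum. Chop null mice lacked CHOP, a transcription factor of the unfolded protein response encoded by Ddit3, and S63del/Chop null mice combined both changes. Nerves were taken at postnatal day 5 (P5), when myelination begins, at P28, near its peak, and at 4 months, when the benefit of losing CHOP is visible in the animals. The perineurial sheath had been removed, and the RNA was that of the whole remaining sample, in which muscle RNA was also measured. The sources used here do not say how the mutant allele is carried, what normal alleles the mice kept, or how many mice gave the RNA of 1 array. The labels call the 2 arrays of a group biological replicates.

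Values are log2 expression as deposited, and ± gives the standard error of a difference from the limma fit over all 24 arrays. A change is called where the Benjamini-Hochberg adjusted p over all 12393 genes was below 0.05. Ddit3, the gene removed in Chop null mice, lay between 6.60 and 7.37 on the 12 arrays of the genotypes without CHOP and between 7.61 and 9.59 on the 12 others. At 4 months the first WT array stood at 9.09, between the S63del arrays of that age, and the second WT array at 8.29. Why these WT arrays differed was not tested. The arrays of Chop null nerve at P28 differed most between replicates (a median absolute difference of 0.36 over genes, against 0.09 to 0.18 in the 11 other groups). Skeletal muscle RNA varied between arrays, with a summed log2 level of 14 muscle genes from 10.83 to 16.08. The defining macrophage genes were present in the nerve RNA: over the 24 arrays the median rank of their array signal, which is no measure of abundance between genes, was the 96.8th percentile of all genes for Csf1r, the 70.6th for Cd68 and the 60.5th for Adgre1. In bulk nerve, fewer macrophages and less RNA per macrophage cannot be told apart.

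Promoters of 4 genes that carry the genotype results are shown, since Lgals3 and Gpnmb rose at P5, Ctss rose at P28 and Mgl2 fell at P28. Each is the 250 bases before the RefSeq start on GRCm38.p6, read 5′ to 3′ on the gene's strand, which is the plus strand for all 4: Lgals3 at chr14:47373610-47373859, Gpnmb at chr6:49036268-49036517, Ctss at chr3:95526536-95526785 and Mgl2 at chr11:70130107-70130356. Capitals mark matches to a searched motif.
Lgals3: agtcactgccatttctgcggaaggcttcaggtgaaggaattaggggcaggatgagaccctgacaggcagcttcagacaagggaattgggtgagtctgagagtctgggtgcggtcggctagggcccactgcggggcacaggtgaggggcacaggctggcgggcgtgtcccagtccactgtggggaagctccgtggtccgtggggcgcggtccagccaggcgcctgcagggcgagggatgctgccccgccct
Gpnmb: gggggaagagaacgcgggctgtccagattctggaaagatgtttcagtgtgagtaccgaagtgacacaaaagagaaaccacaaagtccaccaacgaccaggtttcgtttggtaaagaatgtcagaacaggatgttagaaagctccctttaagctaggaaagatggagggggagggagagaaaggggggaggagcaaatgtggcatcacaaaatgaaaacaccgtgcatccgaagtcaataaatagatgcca
Ctss: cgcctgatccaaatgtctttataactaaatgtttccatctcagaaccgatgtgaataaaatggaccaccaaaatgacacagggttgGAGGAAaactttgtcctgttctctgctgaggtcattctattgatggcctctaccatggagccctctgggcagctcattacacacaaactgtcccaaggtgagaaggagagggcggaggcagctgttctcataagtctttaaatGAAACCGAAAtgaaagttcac
Mgl2: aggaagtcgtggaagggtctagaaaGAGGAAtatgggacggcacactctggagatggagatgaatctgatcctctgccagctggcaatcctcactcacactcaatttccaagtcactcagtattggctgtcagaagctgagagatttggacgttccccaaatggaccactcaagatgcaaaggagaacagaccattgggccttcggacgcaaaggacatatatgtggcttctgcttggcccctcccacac

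Of the 10 genes, 8 had a promoter in the RefSeq table used, with 9 windows in all because Ms4a7 had 2. Motifs were searched on both strands. The core GAGGAA of PU.1, the transcription factor of the myeloid lineage, was found in the windows of Cd68, Ctss and Mgl2, and in 23.3% of all 32851 windows of that length. The AP-1 motif TGANTCA was found in Cd68, Cybb and 1 window of Ms4a7, against 6.75% of all windows. The motif of interferon regulatory factors, searched as 2 copies of GAAA with any 2 bases between them and added after the sequences were seen, stood in Ctss, 12 to 21 bases before the start, and at 3 places in Cybb, against 2.98% of all windows. Neither the composite TGATGNAAT of CHOP and ATF4 (0.816% of all windows) nor the E-box CACGTG of the lysosomal MITF and TFE factors (6.02%) was found in any of the 9 windows. Windows of Lgals3 and Gpnmb held none of the 5 motifs. A match is a match of letters only, and no 2 matches overlapped.

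In the mutant nerve the macrophage genes did not move as a block. At P5 Lgals3 and Gpnmb rose and no other member passed the test. That made 2 of 10 higher and none lower, where 1.15% of all genes were called higher and 1.26% lower. At P28 Lgals3, Ctss and Ms4a7 were higher and Mgl2 was lower, 3 and 1 of 10, against 3.01% and 1.61% of all genes. At 4 months, with both WT arrays of that age kept, limma called none of the 10, and called 0 of all 12393 genes (0% called). Even so, 577 genes and 4 members had an unadjusted p below 0.05. The median difference of the 10 was 0.10 at P5, 0.14 at P28 and 0.28 at 4 months, where the median of all genes was -0.02, 0.01 and 0.00. Whether the arrays of the groups lay apart was counted too. At P5 both S63del arrays lay above both WT arrays for 5 members and below for 1, as they did for 22.8% and 27.3% of all genes. At P28 this was so for 5 and 3 members (27.7% and 24.5% of all genes), and at 4 months for 6 and 1 (16.9% and 16.6%).

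**Figure D1:**
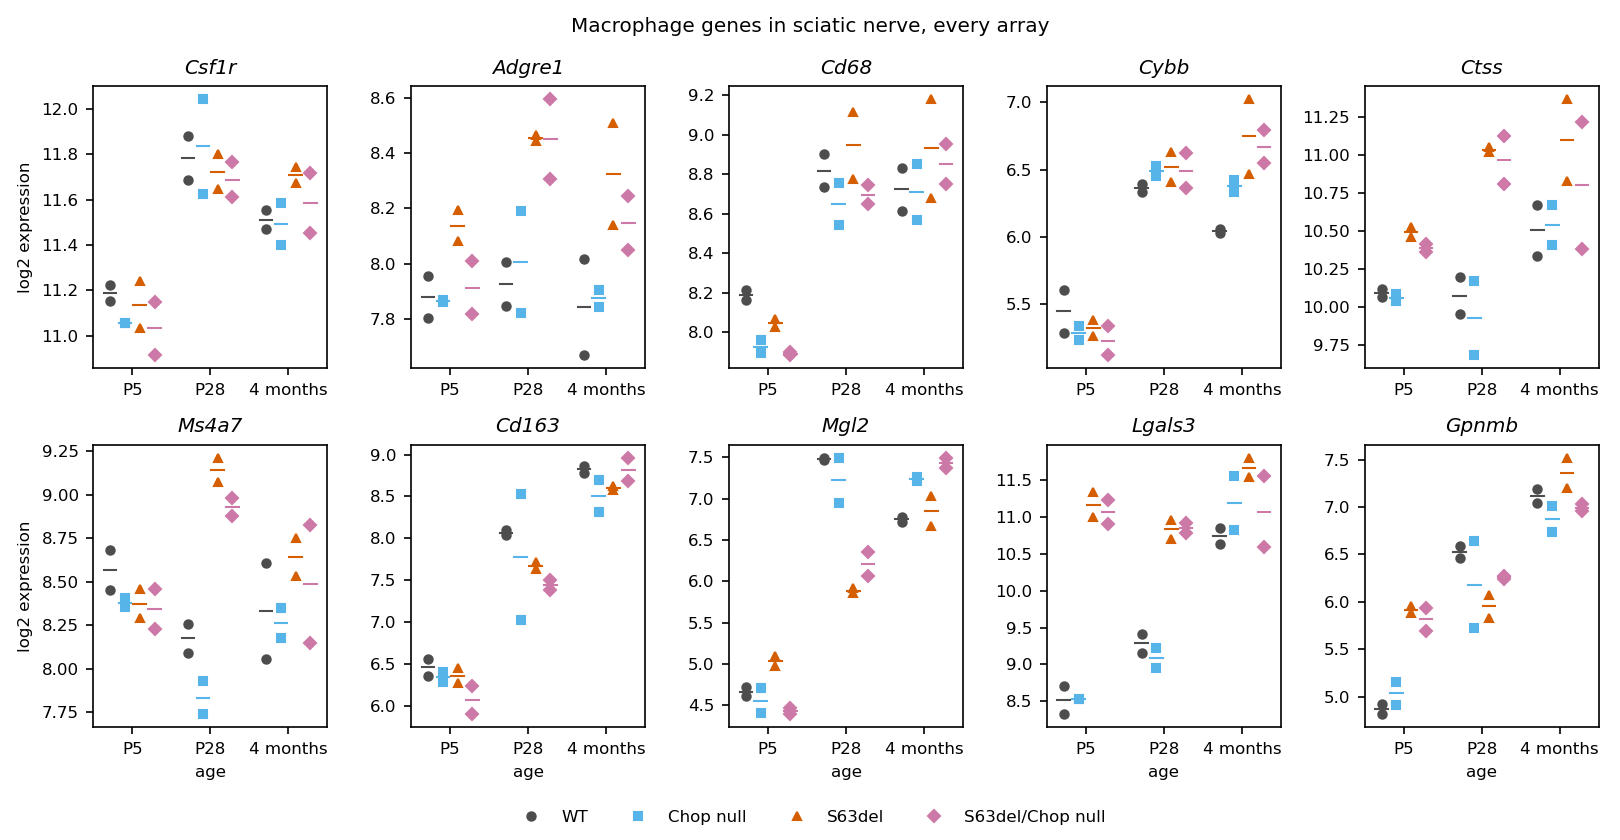
Log2 expression (vertical axis, scaled separately for each gene) of the 10 macrophage genes on every array, by age and genotype; each point is 1 array and each line the mean of 2. Lgals3 separates the S63del genotypes from WT and Chop null at P5 and P28, and Mgl2 does so in the other direction at P28.

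The lineage genes Csf1r, Adgre1 and Cd68 gave no called change between S63del and WT at any age. Csf1r, the receptor for CSF1 and IL-34, stood at 11.22 and 11.16 in WT and at 11.24 and 11.03 in S63del at P5, at 11.69 and 11.88 against 11.65 and 11.80 at P28, and at 11.55 and 11.47 against 11.67 and 11.74 at 4 months. Its groups overlapped at P5 and P28 and lay apart at 4 months. The difference was -0.05 ± 0.15, -0.06 ± 0.15 and 0.20 ± 0.15, and the other 2 probe sets of the gene gave differences between -0.11 and 0.19. At P28 the 95% interval of -0.37 to 0.25 for Csf1r did not reach the rise of Ctss or Ms4a7.

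Adgre1, which encodes the adhesion receptor F4/80 of mouse macrophages, stood at 7.84 and 8.01 in WT and at 8.47 and 8.45 in S63del at P28. The arrays did not overlap, and the difference of 0.53 ± 0.16 missed the threshold (limma adjusted p = 0.0636). It passed with the dim genes left out (adjusted p = 0.0427) and without the second Chop null array at P28 and the first WT array at 4 months (adjusted p = 0.0159). At P5 the difference was 0.26 ± 0.16, with WT at 7.95 and 7.80 and S63del at 8.08 and 8.19, and at 4 months it was 0.48 ± 0.16, with WT at 8.02 and 7.67 and S63del at 8.14 and 8.51. S63del arrays were thus the higher at all 3 ages, without a call. Cd68, a glycoprotein of the macrophage endosome and lysosome, differed by -0.14 ± 0.16, 0.13 ± 0.16 and 0.21 ± 0.16 at the 3 ages. Its arrays overlapped at P28 and 4 months, and at P5 both S63del arrays, at 8.07 and 8.03, lay below the WT arrays at 8.22 and 8.17.

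Ctss and Ms4a7 rose at P28. Ctss encodes cathepsin S, a lysosomal protease that cuts the invariant chain of MHC class II. At P28 it stood at 9.95 and 10.20 in WT and at 11.05 and 11.02 in S63del, apart by more than the spread of either group, and the rise was 0.96 ± 0.23 (1.95-fold; limma adjusted p = 0.0256). This call was lost without the first WT array (0.84, adjusted p = 0.223), without the first S63del array (0.94, adjusted p = 0.165) and without the second S63del array (0.98, adjusted p = 0.103), and in 3 other alternatives (adjusted p = 0.133 from the P28 arrays alone, adjusted p = 0.0594 with array weights and adjusted p = 0.0696 with skeletal muscle as a covariate). The arrays also lay apart at P5, with WT at 10.11 and 10.06 and S63del at 10.52 and 10.46, where the difference was 0.40 ± 0.23 (adjusted p = 0.626). At 4 months WT stood at 10.67 and 10.33 and S63del at 10.82 and 11.37, a difference of 0.59 ± 0.23 (adjusted p = 0.922).

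Ms4a7 encodes a tetraspanning membrane protein of the MS4A family that is found in macrophages. At P28 it stood at 8.26 and 8.09 in WT and at 9.21 and 9.07 in S63del, a rise of 0.97 ± 0.20 (1.96-fold; limma adjusted p = 0.0103). The call was lost without the first WT array (1.05, adjusted p = 0.0573), without the first S63del array (0.90, adjusted p = 0.115) and from the P28 arrays alone (adjusted p = 0.0505). At P5 its arrays overlapped, at 8.68 and 8.45 in WT and 8.29 and 8.46 in S63del, and at 4 months as well, at 8.61 and 8.06 against 8.53 and 8.75. Cybb encodes the catalytic subunit of the phagocyte NADPH oxidase. It differed by -0.13 ± 0.16 at P5, 0.16 ± 0.16 at P28 and 0.71 ± 0.16 at 4 months, the last from WT at 6.03 and 6.06 and S63del at 6.47 and 7.03 (adjusted p = 0.589). Without the first S63del array the 4-month difference was 0.98 and passed (adjusted p = 0.0328).

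The lectin receptor Mgl2 fell steeply at P28, the opposite direction to Ctss, Ms4a7 and Lgals3. Mgl2 encodes CD301b, a galactose-type lectin of alternatively activated macrophages and of some dendritic cells. It stood at 7.50 and 7.47 in WT and at 5.86 and 5.91 in S63del, so that the gap was many times the spread within either group. The fall was -1.60 ± 0.16 (3.02-fold lower; limma adjusted p = 3.85e-05), and it passed in all 13 alternatives that gave a value, with adjusted p up to 0.018. At P5, S63del arrays lay higher, at 5.09 and 4.97 against 4.72 and 4.61 (0.37 ± 0.16, adjusted p = 0.398). At 4 months the groups overlapped, at 6.78 and 6.72 in WT and 6.67 and 7.03 in S63del. Cd163, the scavenger receptor for haemoglobin and haptoglobin, showed no call: at P28 it stood at 8.04 and 8.10 in WT and at 7.71 and 7.63 in S63del, lower by -0.39 ± 0.30 (adjusted p = 0.471). Its differences at P5 and 4 months were -0.10 ± 0.30 and -0.22 ± 0.30.

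Lgals3 gave the largest change of the 10 genes at P5. Galectin-3 binds galactosides and is abundant in phagocytes that have taken up myelin. At P5 it stood at 8.70 and 8.32 in WT and at 11.34 and 11.00 in S63del, a rise of 2.66 ± 0.27 (6.32-fold; limma adjusted p = 1.39e-05). All 14 alternatives kept this call. At P28 it stood at 9.16 and 9.41 against 10.96 and 10.71 (1.55 ± 0.27, 2.93-fold, adjusted p = 0.00346), and the call was lost without the first WT array (1.43, adjusted p = 0.0573) and without the first S63del array (1.42, adjusted p = 0.0558). By 4 months WT itself had reached 10.64 and 10.85, and S63del stood at 11.54 and 11.81. The groups still lay apart, by 0.93 ± 0.27, without a call (adjusted p = 0.593).

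Gpnmb encodes a transmembrane glycoprotein of phagocytes with a loaded lysosome. At P5 it stood at 4.81 and 4.92 in WT and at 5.95 and 5.88 in S63del (1.05 ± 0.21, limma adjusted p = 0.00878). The deposited values carry no detection call, and the lowest value of Gpnmb, at P5, ranked at the 20.3rd percentile of its array and that of Mgl2, also at P5, still lower, so whether their P5 signal was above background is not known here. The Gpnmb call did not survive the loss of any of the 4 arrays: adjusted p = 0.104 without the first WT array, 0.0626 without the second, 0.0959 without the first S63del array and 0.0726 without the second. At P28 the order was the reverse, with WT at 6.58 and 6.46 and S63del at 5.83 and 6.07, a difference of -0.57 ± 0.21 (adjusted p = 0.125) that passed without the second Chop null array at P28 and the first WT array at 4 months (adjusted p = 0.0121). At 4 months it stood at 7.19 and 7.04 in WT and at 7.20 and 7.52 in S63del, 0.25 ± 0.21 apart.

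**Figure D2:**
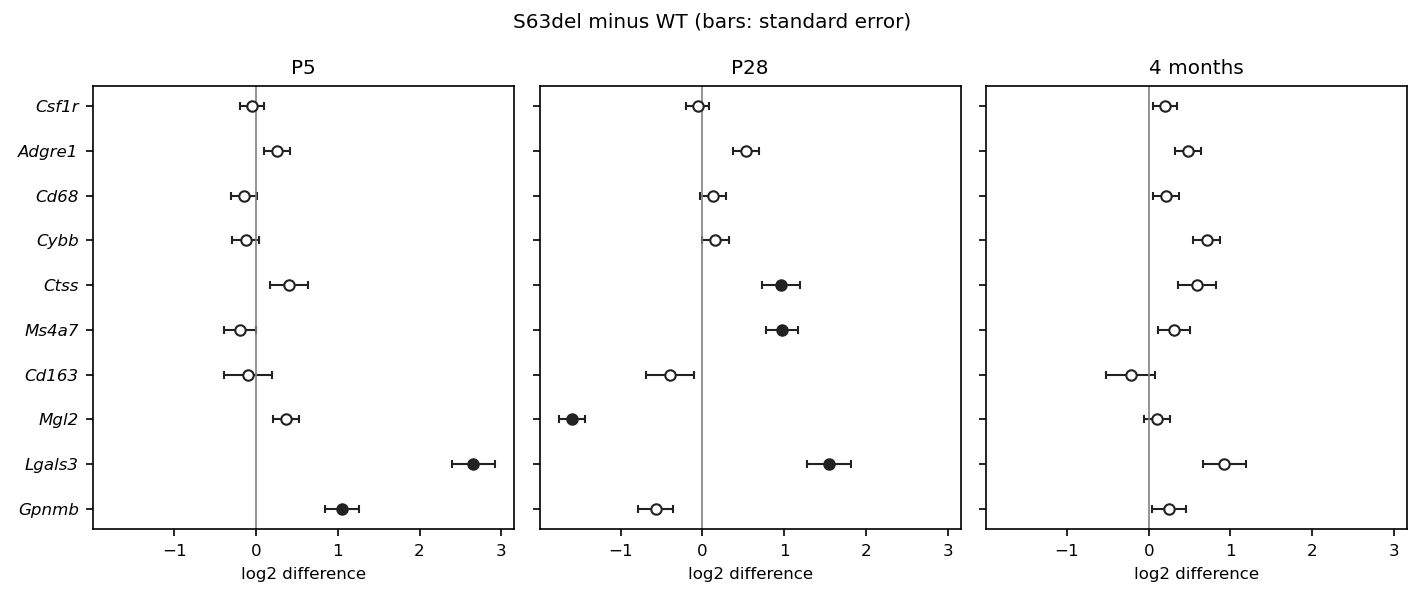
Difference in log2 expression between S63del and WT nerve (horizontal axis) for each gene at each age, with bars of 1 standard error from limma; filled points passed the adjusted threshold of 0.05. Lgals3 lies at 2.66, 1.55 and 0.93 at the 3 ages, and Mgl2 at -1.60 at P28.

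The effect of the mutant protein differed between ages for Mgl2 and Gpnmb when that difference was itself tested. From P5 to P28 the S63del effect moved by -1.96 ± 0.23 for Mgl2 (limma adjusted p = 0.000326) and by -1.63 ± 0.30 for Gpnmb (adjusted p = 0.0152), 2 of 10 genes lower where 0.234% of all genes were called lower and 0.242% higher. The Mgl2 call held in all 16 alternatives that gave a value. The Gpnmb call was lost when any of these 6 arrays was left out: either WT array at P5, either S63del array at P5, the first WT array at P28 and the first S63del array at P28, with adjusted p from 0.0525 to 0.1004. From P28 to 4 months the effect on Mgl2 moved back by 1.69 ± 0.23 (limma adjusted p = 0.0028). Mgl2 was the 1 member called, where 0.113% of all genes were called higher and 0.0565% lower. This call held in all 16 alternatives that gave a value. Ms4a7 moved by 1.16 ± 0.28 from P5 to P28, not past the threshold (limma adjusted p = 0.0864). It passed with array weights (limma adjusted p = 0.0495) and without the second Chop null array at P28 and the first WT array at 4 months. Lgals3 moved by -1.73 ± 0.38 from P5 to 4 months, also short of the threshold (limma adjusted p = 0.0745). It passed with a variance trend and robust moderation (limma adjusted p = 0.0428). In the main fit no member was called between P5 and 4 months (0.282% of all genes were).

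Loss of CHOP left the macrophage genes of the mutant nerve without a called change. Between S63del/Chop null and S63del none of the 10 passed at P5, P28 or 4 months, where limma called 0.0161%, 0.00807% and 0.00807% of all genes, and 1, 0 and 2 members had an unadjusted p below 0.05. At P5 all 10 differences lay below 0 (median -0.11, against 0.00 for all genes), while at P28 3 lay above 0 (median -0.03) and at 4 months 2 (median -0.14). Lgals3 stood at 11.24 and 10.91 in S63del/Chop null nerve at P5 and at 10.92 and 10.78 at P28, inside or beside the S63del values. The differences were -0.10 ± 0.27 and 0.02 ± 0.27, with 95% intervals from -0.66 to 0.47 and from -0.54 to 0.58. At 4 months the 2 S63del/Chop null arrays of Lgals3 lay far apart, at 10.59 and 11.55, and the difference was -0.60 ± 0.27 (95% interval -1.17 to -0.04). Mgl2 was lower in S63del/Chop null than in S63del at P5 (4.47 and 4.39; -0.60 ± 0.16) and higher at 4 months (7.38 and 7.49; 0.58 ± 0.16). At P28 it stood at 6.35 and 6.06, above both S63del arrays and below both WT arrays (0.32 ± 0.16), and none of these differences passed after adjustment.

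**Figure D3:**
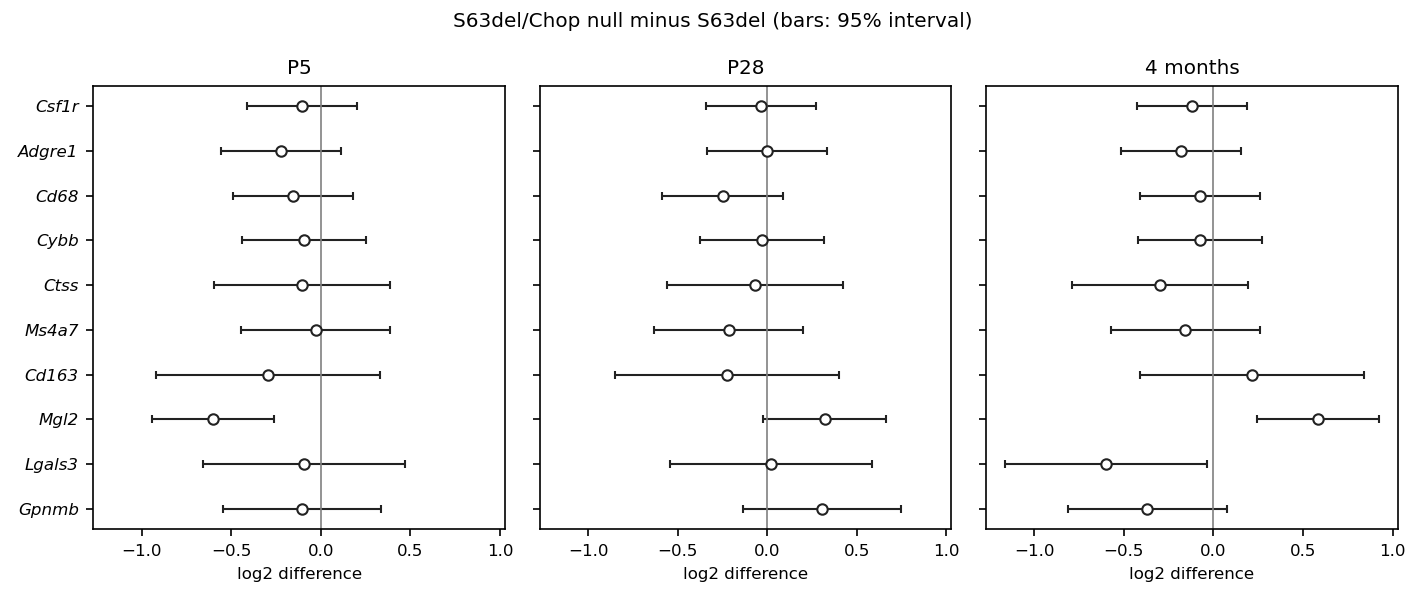
Difference in log2 expression between S63del/Chop null and S63del nerve (horizontal axis) for each gene at each age, with 95% intervals from limma; no point passed the adjusted threshold. Intervals of Mgl2 at P5 and 4 months and of Lgals3 at 4 months leave out 0 before adjustment.

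The effect of the mutant protein was also read in nerves without CHOP. Between S63del/Chop null and Chop null, Lgals3 rose at P5 by 2.55 ± 0.27 (limma adjusted p = 2.59e-05), the 1 member called where 0.904% of all genes were higher and 0.880% lower, and Gpnmb stood at 0.78 ± 0.21 (adjusted p = 0.0805). At P28 Ctss (1.04 ± 0.23), Ms4a7 (1.10 ± 0.20) and Lgals3 (1.76 ± 0.27) were higher and Mgl2 (-1.01 ± 0.16) was lower, against 9.77% of all genes higher and 8.05% lower. The 2209 genes called at P28 became 14 with array weights and 5988 without the first Chop null array. None was called at 4 months (0% of all genes). With array weights no member passed at P28 (adjusted p from 0.282 to 0.425 for these 4), and Ctss was also lost without the second Chop null array (0.80, adjusted p = 0.107) and without the first S63del/Chop null array (0.88, adjusted p = 0.0671). From the P28 arrays alone Ctss (adjusted p = 0.0797) and Mgl2 (adjusted p = 0.0807) were lost, and without the second Chop null array Cd163 passed at -1.08 (adjusted p = 0.00232).

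Against WT, S63del/Chop null nerve gave Lgals3 at 2.56 ± 0.27 and Gpnmb at 0.95 ± 0.21 at P5, 2 members called where 0.904% of all genes were higher and 1.17% lower. At P28 it gave Ctss at 0.89 ± 0.23, Ms4a7 at 0.75 ± 0.20, Lgals3 at 1.57 ± 0.27 and Mgl2 at -1.28 ± 0.16, where 2.70% of all genes were called higher and 1.70% lower. This comparison shares its WT arrays with the one of S63del against WT, so the values stand side by side and are not a second observation. The calls of Ctss and Ms4a7 at P28 were near the threshold (limma adjusted p = 0.0392 and adjusted p = 0.0391) and were lost without any 1 of the 4 arrays compared, as was the Gpnmb call at P5 (adjusted p from 0.0703 to 0.246). The Lgals3 call at P28 was lost without the first WT array (1.44, adjusted p = 0.0539). Adgre1, at 0.53, and Cd163, at -0.62, were not called against WT at P28. Adgre1 passed there with the dim genes left out (limma adjusted p = 0.0488). Without the second Chop null array at P28 and the first WT array at 4 months, both Adgre1 (0.53) and Cd163 (-0.62) passed. No member was called at 4 months, where 0.00807% of all genes were.

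CHOP loss on its own gave no call either. Between Chop null and WT 0 members passed at each age, where 0%, 0% and 0.00807% of all genes did, and the unadjusted p was below 0.05 for 0, 0 and 1 members, the last being Mgl2 at 4 months (0.49 ± 0.16; WT at 6.78 and 6.72, Chop null at 7.26 and 7.22). At P28 the 2 Chop null arrays of Cd163 stood at 8.53 and 7.02, with both WT arrays between them. Without the first of them Cd163 (-1.04, limma adjusted p = 0.000594) and Mgl2 (-0.53, adjusted p = 0.0209) passed, and without the second Cd163 was at 0.46 and did not pass (adjusted p = 0.300), so a call rested on which array was kept. In the fit without the first, 3484 of all genes passed, against 0 with both. The interaction of the mutant protein with CHOP loss was called for none of the 10 at any age, and for 0% of all genes, with unadjusted p below 0.05 for 1 member at P5, 2 at P28 and 1 at 4 months (107, 972 and 322 of all genes). Without the first Chop null array at P28 the interaction passed there for Cd163 (0.82, adjusted p = 0.0190) and Mgl2 (0.85, adjusted p = 0.0109), and for 2239 of all genes. For Lgals3 at 4 months it was -1.05 ± 0.38, and from -1.53 to -0.57 when 1 array was left out.

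In WT nerve the macrophage genes changed with age. From P5 to P28, 7 of 10 rose and none fell: Csf1r, Cd68, Cybb, Cd163, Mgl2, Lgals3 and Gpnmb, against 31.3% of all genes called higher and 28.2% lower. Mgl2 rose from 4.72 and 4.61 to 7.50 and 7.47, a difference of 2.82 ± 0.16 (limma adjusted p = 1.26e-09). Gpnmb rose by 1.66 ± 0.21 and Cd163 by 1.61 ± 0.30, the latter from 6.36 and 6.56 to 8.04 and 8.10. Of the lineage genes, Csf1r rose by 0.60 ± 0.15 and Cd68 by 0.63 ± 0.16, and Cybb rose by 0.91 ± 0.16 from 5.29 and 5.61 to 6.39 and 6.33. Adgre1 (0.05 ± 0.16), Ctss (-0.02 ± 0.23) and Ms4a7 (-0.39 ± 0.20) gave no call. The rise of Lgals3 (0.77 ± 0.27, adjusted p = 0.0204) was lost without the second WT array at P5 (0.58, adjusted p = 0.151) or at P28 (0.65, adjusted p = 0.112).

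From P28 to 4 months, Lgals3 (1.46 ± 0.27), Cd163 (0.76 ± 0.30) and Gpnmb (0.59 ± 0.21) rose further and Mgl2 fell (-0.73 ± 0.16), 3 higher and 1 lower of 10, against 31.5% and 25.5% of all genes. The call of Cd163 was lost without any 1 of the 4 arrays compared (limma adjusted p from 0.0843 to 0.133). That of Gpnmb was lost without either WT array at P28 or the first at 4 months (adjusted p from 0.0619 to 0.126). All 3 probe sets of Csf1r fell here, but their calls differed. The brightest fell by -0.27 ± 0.15 without a call (limma adjusted p = 0.126 over probe sets). The others fell by -0.35 ± 0.13 (adjusted p = 0.0368) and -0.88 ± 0.14 (adjusted p = 0.000124). With the mean of probe sets as the gene value, Csf1r fell by -0.50 and passed (limma adjusted p = 0.00123). Across the whole span, from P5 to 4 months, Cd163 (2.37 ± 0.30), Gpnmb (2.25 ± 0.21), Lgals3 (2.24 ± 0.27), Mgl2 (2.09 ± 0.16), Cybb (0.59 ± 0.16) and Cd68 (0.53 ± 0.16) rose, 6 of 10 against 21.3% of all genes called higher and 15.5% lower. The Cybb call was lost without the first WT array at P5 (0.43, adjusted p = 0.119), and that of Cd68 without the second WT array at P5 (0.51, adjusted p = 0.0742) or the first at 4 months (0.42, adjusted p = 0.125), and without the second Chop null array at P28 and the first WT array at 4 months (0.42, adjusted p = 0.0934).

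Other cell markers moved with these ages. From P5 to P28 all 8 adipocyte genes rose (median 2.80), and 11 of 14 lymphocyte genes, 6 of 9 mast cell genes (median 1.24) and 4 of 8 dendritic cell genes rose, where 31.3% of all genes did. Muscle genes had a median of 1.67 with 2 of 14 called. From P28 to 4 months 13 of 14 muscle genes fell (median -4.52), and 7 of 9 mast cell genes rose and 1 fell. From P5 to 4 months 8 of the 9 mast cell genes rose. The arrays of P28 also had a narrower spread of values (interquartile range 2.90 to 3.52, against 3.77 to 3.90 at the other ages). With skeletal muscle as a covariate, chosen after seeing the data, 2 age calls were lost: Gpnmb from P28 to 4 months (0.51, limma adjusted p = 0.162) and Cd68 from P5 to 4 months (0.43, adjusted p = 0.0886). Quantile normalization, which gives every array the same spread, ended the calls of Cd163 (0.47, adjusted p = 0.212) and Gpnmb (0.51, adjusted p = 0.0656) from P28 to 4 months. The part of the adipocyte, lymphocyte, mast cell and dendritic cell markers was not tested.

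**Figure D4:**
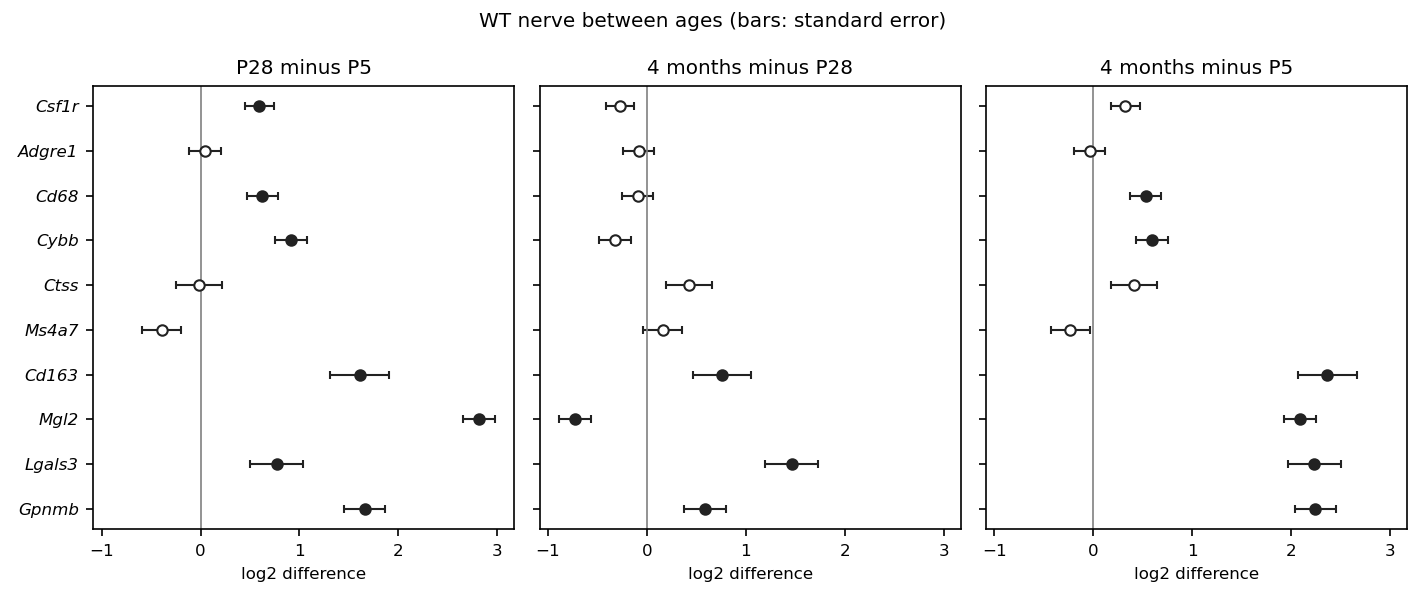
Difference in log2 expression between ages of WT nerve (horizontal axis) for each gene, with bars of 1 standard error from limma; filled points passed the adjusted threshold of 0.05. Mgl2 rises by 2.82 from P5 to P28 and falls by 0.73 from P28 to 4 months, while Adgre1, Ctss and Ms4a7 are open in all 3 comparisons.

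Wider lists of related genes were read in the same fit. Of 31 other macrophage and myeloid genes, 4 were higher and 0 lower in S63del at P28 (median 0.26, against 0.01 for all genes), where 3.01% of all genes were higher: the lipid receptor gene Trem2 (0.90 ± 0.17), Aif1, which encodes the actin-binding protein IBA1 (0.88 ± 0.24), the perforin-like Mpeg1 (0.84 ± 0.20) and the fractalkine receptor gene Cx3cr1 (0.81 ± 0.21). At P5 only 1 of the 31 passed, Slc11a1, a metal transporter of the phagosome (0.88 ± 0.16). At 4 months none passed, when 0% of all genes were called. The median of the 31 was 0.10 at P5 and 0.29 at 4 months. Of the 31, 22 lay above 0 at P5, 27 at P28 and 29 at 4 months. Broad leukocyte genes gave no call at P28: Ptprc, which encodes CD45, was at 0.37 ± 0.21, Itgam, which encodes CD11b, at -0.12 ± 0.28, and Spi1, which encodes PU.1, at 0.15 ± 0.18. Over the alternatives the P28 count of rises ranged from 0 to 7, with the median between 0.19 and 0.36.

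Of 20 genes of resident and alternatively activated macrophages, 0 rose and 1 fell in S63del at P28 (median -0.30), where 1.61% of all genes fell. The 1 was F13a1, a coagulation factor subunit made by such cells (-0.46 ± 0.13), and Mrc1, which encodes the mannose receptor CD206, was at -0.08 ± 0.12. The median stayed between -0.37 and -0.23 over the alternatives, with 0 to 2 falls called. In WT nerve 15 of these 20 rose from P5 to P28 and none fell (median 0.93), where 31.3% of all genes rose and 28.2% fell. Mgl2 and this list thus stood on the same side of 0 at P28, with only F13a1 of the list past the threshold. The P28 median also lay below 0 for neutrophil (-0.38), adipocyte (-0.31), lymphocyte (-0.23) and skeletal muscle genes (-2.08). Erythroid (-0.21), dendritic cell (-0.05) and Schwann cell and myelin genes (-0.03) lay below 0 as well. Mast cell and repair Schwann cell genes lay above it (0.52 each). What these lists share was not tested.

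The ligands of the CSF1 receptor and of CX3CR1 gave no call, while 4 chemokine genes rose. Csf1 and Il34, the 2 ligands of the CSF1 receptor, were at 0.20 ± 0.15 and 0.33 ± 0.23 at P28, and Cx3cl1, the ligand of CX3CR1, at 0.04 ± 0.15, with no call at any age. Among the 16 ligands, chemokines and receptors, the monocyte attractants Ccl8 (2.22 ± 0.37) and Ccl2 (1.13 ± 0.28) rose at P5. At P28 Ccl9 (1.04 ± 0.20) and Ccl3 (0.63 ± 0.15) rose. The difference between ages was not read for these chemokines. Of all genes 1.15% were called higher at P5 and 3.01% at P28. The count of rises in this list changed over the alternatives, and at each of these 2 ages at least 1 alternative called no rise. Of 35 genes of phagocyte lipid handling and the lysosome, 2 were higher and 1 lower at P5, the cystatin gene Cstb (0.71 ± 0.13), the cholesterol exporter gene Abca1 (0.70 ± 0.18) and the tetraspanin gene Cd9 (-0.55 ± 0.09). At P28 3 of the 35 were higher: Trem2, the lysosomal protease gene Lgmn (0.68 ± 0.15) and Cstb (0.48 ± 0.13), with a median of 0.09. Of all genes 1.26% were called lower at P5. The count of rises among these 35 also changed over the alternatives, and at P5 and P28 at least 1 alternative called no rise.

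Families of single members were checked as well. No other NADPH oxidase gene of the 8 measured was called in S63del at any age. Of 8 other galectin genes, Lgals1 (0.45 ± 0.12) and Lgals8 (0.48 ± 0.13) rose at P28. Of 11 other MS4A genes, Ms4a4d (0.99 ± 0.25) rose at P28. At that age 3.01% of all genes were called higher. The counts of the galectin and MS4A lists changed over the alternatives, and for each list at least 1 alternative called no rise at P28. In S63del/Chop null against S63del no gene of any of these lists passed at any age.

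**Figure D5:**
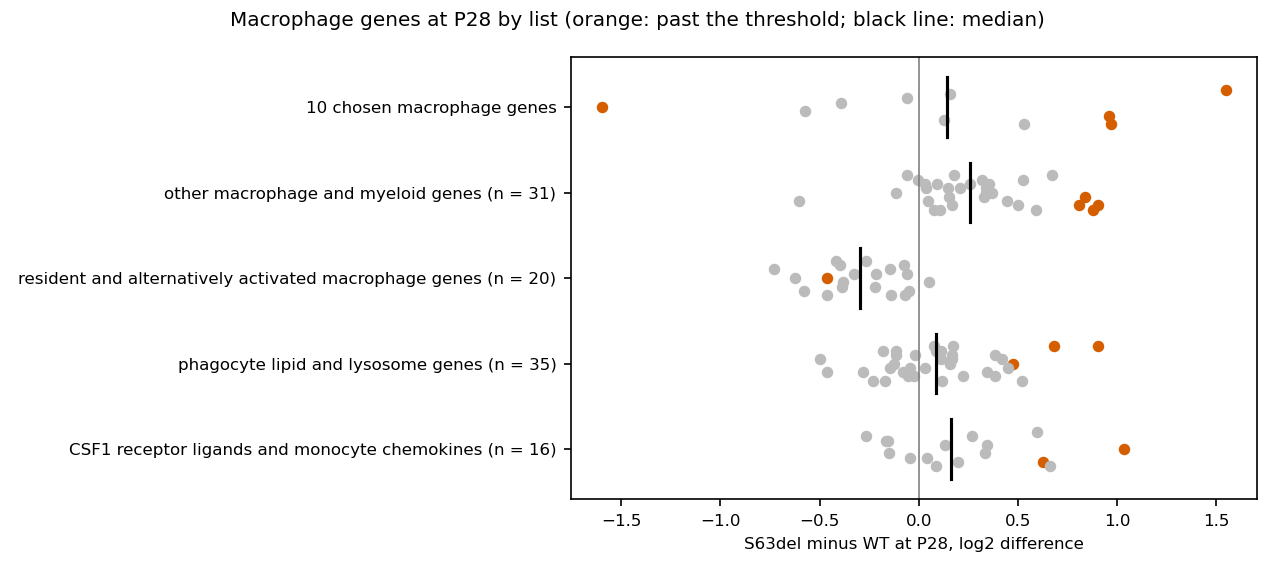
Difference in log2 expression between S63del and WT nerve at P28 (horizontal axis) for the 10 genes and 4 related lists; each point is 1 gene, orange where it passed the adjusted threshold, and the black line is the median of the list. Medians are 0.14 for the 10 genes, 0.26 for other macrophage and myeloid genes and -0.30 for resident and alternatively activated macrophage genes.

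Markers of other cells moved with the mutant genotype at P5 and P28. Of 14 repair Schwann cell genes 6 rose at P28, where 3.01% of all genes did, among them Sox2 (2.19 ± 0.38), Pou3f1 (2.09 ± 0.35) and Gfap (1.43 ± 0.22), and the summed log2 level of the list was 11.03 to 11.15 in WT and 12.15 to 12.17 in S63del. At P5 that list had 1 rise (Gdnf, 1.63 ± 0.24), with sums of 12.75 to 12.80 in WT and 13.19 to 13.22 in S63del. The mast cell tryptase genes Tpsab1 (1.62 ± 0.31) and Tpsb2 (0.88 ± 0.23) rose at P28, 2 of 9 mast cell genes. No gene of the neutrophil (11), lymphocyte (14), dendritic cell (8), adipocyte (8) or skeletal muscle (14) lists was called between S63del and WT at any age. Of 11 Schwann cell and myelin genes 4 fell at P5 (median -0.51), where 1.26% of all genes were called lower. These were S100b (-1.06 ± 0.12), Ncmap (-1.02 ± 0.13), Mal (-0.51 ± 0.10) and Mbp (-0.45 ± 0.09). The summed level of that list at P5 was 16.26 to 16.27 in WT and 15.85 to 15.90 in S63del. At P28 1 of the 11 fell, Mal (-0.41 ± 0.10), where 1.61% of all genes were called lower. Of 5 erythroid genes the haemoglobin gene Hba-a2 fell at P28 (-2.14 ± 0.18). With skeletal muscle as a covariate Mgl2 at P28 was -1.53 (limma adjusted p = 0.000298). Ctss was lost in S63del (0.94, adjusted p = 0.0696), and in S63del/Chop null nerve against WT both Ctss (0.88, adjusted p = 0.0751) and Ms4a7 (0.64, adjusted p = 0.0932) were. The part of the repair Schwann cell, myelin, mast cell and erythroid markers in the macrophage results was not tested. The summed muscle level was lower in S63del than in WT at P28 on every array (15.49 and 15.96 in WT, 15.28 on the higher S63del array), and the other S63del array was lower still.

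Across the 12 group means the 10 genes correlated as follows, given as a description since the groups share age and genotype. Cd68 and Cybb followed each other most closely (Pearson r = 0.96), and Csf1r followed Cybb (r = 0.94) and Cd68 (r = 0.93). Cd163 and Mgl2 followed each other (r = 0.92), and each also followed Cd68 (r = 0.89 and r = 0.86), Cybb (0.85 and 0.87) and Gpnmb (0.88 and 0.82). Ctss followed Lgals3 (r = 0.82), Adgre1 (r = 0.80) and Ms4a7 (r = 0.77), while Ms4a7 and Mgl2 ran apart (r = -0.24). Among all genes, the 5 most like Lgals3 were Sqstm1 (r = 0.98), Vamp5 (0.97), Mocos (0.96), Impact (0.94) and Ero1b (0.94). The 5 most like Csf1r were Trav9d-3 (0.99), Aqp7 (0.99), Apoc1 (0.98), Pdha1 (0.98) and Fcgr2b (0.98), and those most like Ms4a7 were 2510039O18Rik (0.90), Plxdc1 (0.87), Wif1 (0.86), Gucd1 (0.84) and Hadhb (0.84).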

How the data were processed

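Total RNA of sciatic nerve without its perineurial sheath (5 ug a sample, per the labels' protocols) was hybridised to 24 Affymetrix arrays. The authors deposited log2 expression values for 22690 probe sets. Which software and normalization made the values is not stated in the sources at hand, and they were used as deposited. Probe sets were named from the platform annotation, with symbols updated through Entrez numbers in a GRCm38.p6 gene table (20351 matched). Left out were 64 control probe sets, 691 with several symbols and 1555 with none. Of the 20380 kept, the probe set with the highest mean over all arrays stood for each of 12393 genes. A group-means model over 12 groups was fitted with limma 3.58.1 in R 4.3.3 (12 residual degrees of freedom), with Benjamini-Hochberg adjustment over all genes in each of 24 comparisons. Scripts were tested on simulated data. Probe intensities set no scale between genes, and the number of arrays, 2 a group, limits the precision.

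The 10 genes and the 16 gene lists were chosen with earlier results of these data known. Named genes were the 10 in every comparison, up to 4 genes of each list with the smallest p among those called between S63del and WT, and a fixed set of ligands and markers. 1 gene of that set is not reported here. Same-numbered arrays of a group were not treated as pairs. Promoter sequences are RefSeq's on GRCm38.p6; those of Csf1r and Adgre1 were not used here.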

Additional observations from a re-analysis of the deposited data

Results flagged for a closer look

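The effect of S63del differed between ages, by a test of the difference itself, for 2 of the 10 genes. For Mgl2 it moved by -1.96 from P5 to P28 and by 1.69 from P28 to 4 months: S63del nerve lay 0.37 above WT at P5, -1.60 from it at P28 and 0.10 at 4 months. For Gpnmb it moved by -1.63 from P5 to P28, from 1.05 above WT to -0.57. The limma test of each difference passed the adjusted threshold of 0.05. From P5 to P28 0.234% of all genes were called lower, and from P28 to 4 months 0.113% higher. The Mgl2 calls held in every alternative that gave a value. Leaving out dim genes removed Mgl2 and so gave it no value. The Gpnmb call was lost when certain single arrays were left out. Whether the P5 signal of Mgl2 or of Gpnmb was above background is not known here.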

How the results depend on the processing

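Of 37 calls on the 10 genes, 19 held in every alternative that gave a value, and no called value changed sign. The larger moves in the count of members called were as follows, with the main count in brackets. Moves that were small relative to the main count are left out, here and for single arrays below. A comparison missing under a setting can therefore still have gained or lost calls, as it did without the 2 arrays at P28. Quantile normalization gave 2 for S63del/Chop null against WT at P28 (4) and 2 for WT from P28 to 4 months (4). Leaving out dim genes removed Cybb, Mgl2 and Gpnmb by its own construction (7919 genes left), which gave 1 for S63del and 1 for S63del/Chop null against WT at P5 (2 each), 4, 2 and 3 for WT from P5 to P28, P28 to 4 months and P5 to 4 months (7, 4 and 6), and 0 for the S63del effect from P5 to P28 (2) and from P28 to 4 months (1). The arrays of 1 age alone gave 2 for S63del/Chop null against Chop null at P5 (1), and 2 for S63del against WT, S63del/Chop null against Chop null and S63del/Chop null against WT at P28 (4 each). Array weights gave 2 for S63del/Chop null against Chop null at P5 (1), 0 at P28 (4), and 2 for S63del/Chop null against WT at P28 (4). A fit with a variance trend and robust moderation gave 1 for the S63del effect from P5 to 4 months (0). Without the second Chop null array at P28 and the first WT array at 4 months, S63del/Chop null against Chop null at P5 gave 2 (1). With skeletal muscle as a covariate, chosen after seeing the data, S63del/Chop null against WT at P28 gave 2 (4). Except for the dim genes, the cause was not tested.

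Leaving out each array in turn gave counts from 1 to 1 for S63del against WT at P5 (2), 1 to 4 at P28 (4) and 0 to 1 at 4 months (0). S63del/Chop null against WT gave 1 to 1 at P5 (2) and 1 to 2 at P28 (4). Chop null against WT gave 0 to 2 at P28 (0), the interaction 0 to 2 at P28 (0), WT from P28 to 4 months 2 to 3 (4), and the S63del effect from P5 to P28 1 to 2 (2).

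With the replicate block, S63del/Chop null against WT at P28 gave 2 calls (4), where Ctss (adjusted p = 0.0618) and Ms4a7 (0.0752) were lost, and no other count moved by over 1.5 times. In WT nerve it ended the calls of Lgals3 from P5 to P28 (0.0687), Cd163 from P28 to 4 months (0.172) and Cd68 from P5 to 4 months (0.0676), and Cybb from P28 to 4 months passed (0.0308). Deviations of same-numbered arrays correlated between -0.48 and 0.35 over genes. With 1 deviation a group, such values cannot decide whether the numbers pair the arrays. Counts of all genes called also depended on the setting: 298 for S63del against WT at P5 ranged from 119 to 1033, and 572 at P28 from 59 to 1761. The deposited values carry no detection call, so signal over background is not known here.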
